A study of Mus musculus with 46 samples.

Results

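The genes described here are 10 transcripts that mark astrocytes or astrocyte reactivity, followed in bulk RNA-seq of the subventricular zone (SVZ) of mice whose microglia were removed and allowed to return. The genes were taken by symbol, and all 10 were found among the 15695 genes of the SVZ table. *Aqp4*, *Slc1a2*, *Slc1a3*, *Aldh1l1*, *Aldoc* and *S100b* are identity genes, which astrocytes express in health. *Gfap*, *Vim*, *Serpina3n* and *Stat3* are reactivity genes, which astrocytes raise after injury or inflammation. The SVZ data are 15 of the 46 libraries of the series, with 5 control libraries, 5 libraries at 14 day PLX3397 and 5 libraries at 5 day recovery. All mice were wild-type male C57BL/6 mice per the study's methods. The methods give an age of 1.5 months unless otherwise indicated, whereas several of the study's figure legends give an older age for mice on this treatment. Control mice received vehicle chow and no PLX3397. The 14 day PLX3397 mice ate chow with 600 ppm PLX3397, a CSF1R inhibitor that removes microglia, for 14 days. The 5 day recovery mice ate the same PLX3397 chow for 14 days and then vehicle chow for 5 days. The labels name the tissue as subventricular zone, although the dissection protocol they carry lists cortex, hippocampus and thalamus/striatum and not the SVZ. The tissue was bulk, so astrocytes were measured together with neurons, ependymal cells, oligodendrocytes and vessels. The labels number the 5 libraries of a group without naming animals, and the p-values measure the spread between these libraries.

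Astrocytes take up glutamate, hold water and ion balance, and answer injury or inflammation with a change of state called reactivity, in which the filament protein GFAP is the classical marker. In the SVZ, GFAP also marks the astrocyte-like neural stem cells of the adult neurogenic niche. STAT3 is a transcription factor downstream of the IL-6 family of cytokines and is a known inducer of *Gfap* in astrocytes. Microglia are known to signal to astrocytes through cytokines and complement.

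The promoter sequences of 3 members are shown because each holds TTCNNNGAA, the palindromic core of the sites bound by STAT proteins, and *Stat3* is itself a member. They are RefSeq sequences of GRCm38.p6, 250 bases before to 50 bases after the annotated start, on the strand of the gene, with matches in capitals. The *Gfap* promoter lies at chr11:102897151-102897450 on the minus strand, with TTCCAGGAA beginning 2 bases before the start. The *Slc1a3* promoter lies at chr15:8710758-8711057 on the minus strand, with TTCCAAGAA beginning 96 bases before the start. The second *Aldoc* promoter lies at chr11:78323948-78324247 on the plus strand, with TTCAGTGAA beginning 124 and TTCCAGGAA beginning 83 bases before the start.
Gfap: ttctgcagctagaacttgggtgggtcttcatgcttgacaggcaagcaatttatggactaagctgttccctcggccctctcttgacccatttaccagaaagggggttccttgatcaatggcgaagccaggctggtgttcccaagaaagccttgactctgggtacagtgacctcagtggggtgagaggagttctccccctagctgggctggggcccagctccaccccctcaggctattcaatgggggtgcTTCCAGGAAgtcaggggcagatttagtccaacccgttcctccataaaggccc
Slc1a3: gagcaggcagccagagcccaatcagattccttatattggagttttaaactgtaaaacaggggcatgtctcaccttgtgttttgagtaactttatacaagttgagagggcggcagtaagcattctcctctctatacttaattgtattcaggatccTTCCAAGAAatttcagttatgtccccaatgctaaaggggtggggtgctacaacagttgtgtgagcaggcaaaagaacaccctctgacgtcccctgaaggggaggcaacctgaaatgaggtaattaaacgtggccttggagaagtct
Aldoc: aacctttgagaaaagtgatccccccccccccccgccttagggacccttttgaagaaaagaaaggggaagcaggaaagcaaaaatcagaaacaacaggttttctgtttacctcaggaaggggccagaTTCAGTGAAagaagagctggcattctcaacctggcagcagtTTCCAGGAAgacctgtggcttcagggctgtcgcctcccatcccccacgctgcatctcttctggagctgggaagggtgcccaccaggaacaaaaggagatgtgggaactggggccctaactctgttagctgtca

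The search read both strands, which are the same for a palindrome. TTCNNNGAA was in 8.3% of 32851 RefSeq promoters of the same length, so a match by itself is common. *Vim*, *Serpina3n*, *Slc1a2*, *Aldh1l1*, *S100b* and *Stat3* had no match in this window, nor did the first *Aldoc* promoter. The *Slc1a2* promoter searched, at chr2:102706188-102706487, lies inside the gene, and the sequence at the gene's outer start, 102658239, was not searched. A match is a stretch of letters, and binding was not measured.

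The libraries held 4574237 to 10608718 reads, as recovered from the steps between low values in the table, with medians of 5796467, 9558369 and 8237807 in the control, PLX3397 and recovery groups. Values are FPKM, reads scaled by gene length and by library size, and all 10 members passed the limit of FPKM of at least 1 in at least 3 libraries, as did 14151 genes in all. Genes with an adjusted p under 0.05 in limma are called DEGs. The microglial list of 10 genes summed to 314.6–434.9, 11.5–14.9 and 23.8–39.3 FPKM in these groups, and all 10 genes fell in either group against control. Control replicate 1 stood apart by its choroid plexus genes, which summed to 21672 FPKM there and to at most 130.0 FPKM in every other library. Replicates 4 and 5 of 5 day recovery also stood apart, together. Over all genes tested they correlated with each other by r = 0.984 and with the other 13 libraries by 0.947–0.968 and 0.956–0.981. *Fgfr3*, an astrocyte receptor for fibroblast growth factors, was at 2.44 and 3.08 FPKM in them and at 11.2–15.3 FPKM in the other recovery libraries, and *Cntfr*, the receptor of ciliary neurotrophic factor, was at 4.15 and 4.86 against 11.5–13.4 FPKM. These genes were named after their values were seen. The member tests at 5 day recovery that moved most are given with and without these 2 libraries. Erythrocyte genes summed to 91.3–335.9 FPKM at 5 day recovery and 32.4–79.3 FPKM in control. The markers of the SVZ were present, with *Dcx* of neuroblasts at 2.81 FPKM and *Foxj1* of ependymal cells at 4.88 FPKM in control, as was *Drd1* of striatal neurons at 53.5 FPKM.

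*Gfap*, the intermediate filament gene by which reactive astrocytes are recognised, was the DEG among the members at 14 day PLX3397 and at 5 day recovery. It lies at chr11:102887336-102897200 on GRCm38.p6. Its FPKM were 66.9, 48.2, 74.9, 64.4 and 55.9 in control replicates 1 to 5. At 14 day PLX3397 they were 139.0, 122.7, 111.8, 170.7 and 132.0. At 5 day recovery they were 113.9, 159.1, 129.9, 205.3 and 232.0. Every treated library exceeded the highest control library, whereas the ranges of 14 day PLX3397 and 5 day recovery overlapped. In bulk tissue, more cells of a type and more RNA per cell cannot be told apart.

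Mean *Gfap* rose from 62.0 ± 10.3 FPKM (SD, n = 5) in control to 135.2 ± 22.3 FPKM (SD, n = 5) at 14 day PLX3397. On the log2 scale the change was 1.11 (SE 0.18, adjusted p = 0.0013), a 2.16-fold rise with a 95% interval of 1.67 to 2.81. At 5 day recovery, mean *Gfap* was 168.1 ± 49.8 FPKM (SD, n = 5). The log2 fold change against control was 1.39 (SE 0.18, adjusted p = 0.00013), a 2.62-fold rise with a 95% interval of 2.02 to 3.40. Both comparisons use the same control libraries. The difference between 5 day recovery and 14 day PLX3397 was 0.28 on the log2 scale, with a 95% interval of −0.10 to 0.65 and an adjusted p of 0.44, and so was not resolved from the spread between libraries. The coefficient of variation was 29.7% at 5 day recovery, 16.6% in control and 16.5% at 14 day PLX3397. Replicates 4 and 5 of 5 day recovery, which stood apart over all genes, held the highest *Gfap* values, at 205.3 and 232.0 FPKM. Replicates 1 to 3 averaged 134.3 ± 22.9 FPKM (SD, n = 3). Without replicates 4 and 5, *Gfap* was still a DEG against control, by a log2 change of 1.10 with an SE of 0.15 (adjusted p = 0.0010). The log2 difference from 14 day PLX3397 was then −0.0086. Without control replicate 1, the library with choroid plexus genes, the log2 fold changes were 1.14 and 1.42.

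**Figure D1:**
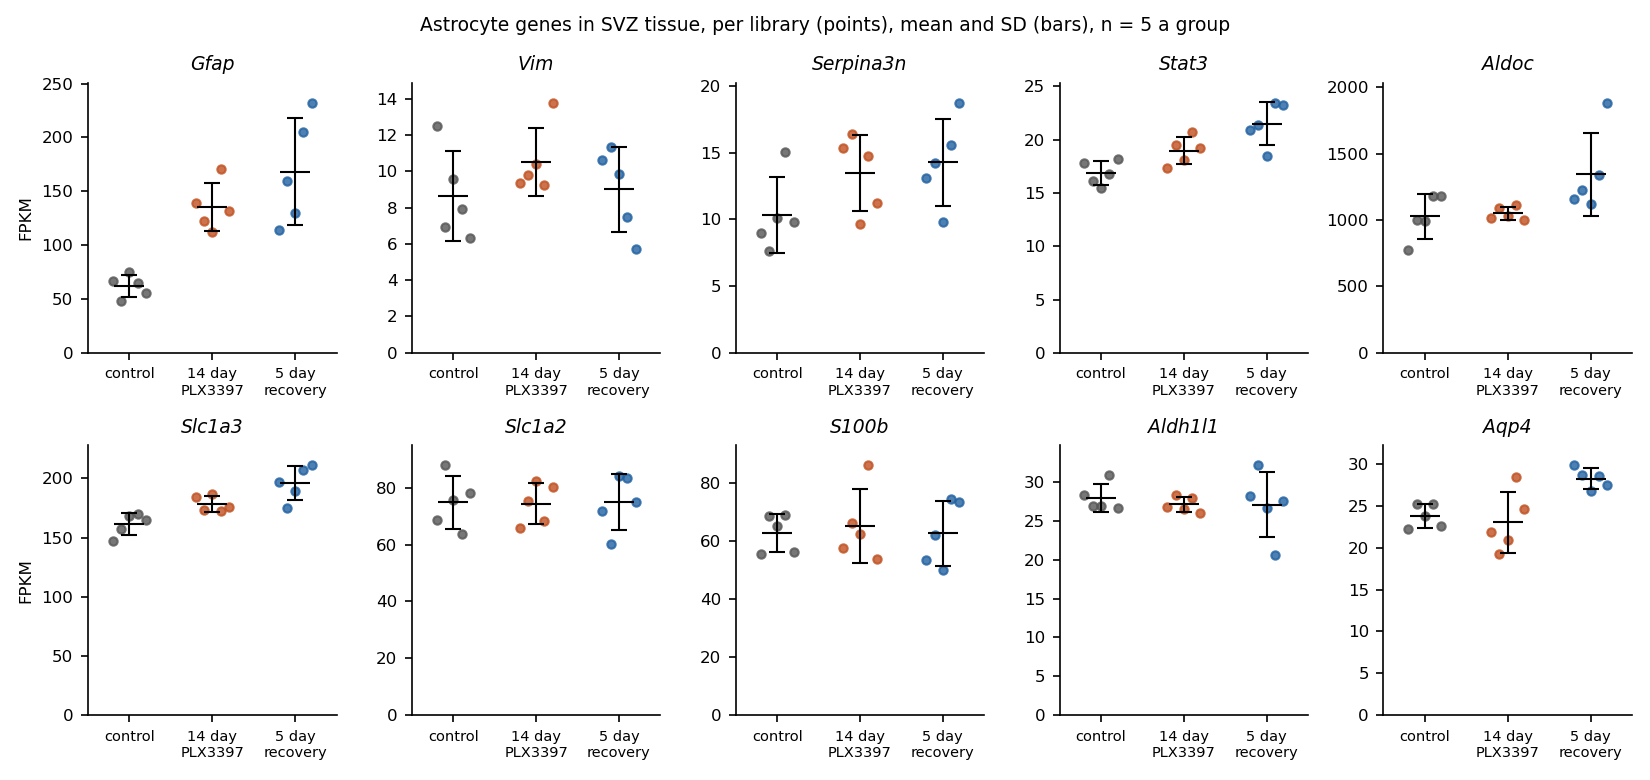
FPKM of the 10 members in each SVZ library (points) of the 3 groups, with the mean and SD of the 5 libraries of a group (black bars) and a linear axis from 0. All 10 treated *Gfap* values lie above the highest control value of 74.9 FPKM, while *Slc1a2*, *S100b* and *Aldh1l1* keep overlapping ranges in the 3 groups.

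At 14 day PLX3397, 1 of 10 members was a DEG, compared with 1.26% of all 14151 genes tested. The DEGs of this comparison were 179 genes, of which 8 were higher (0.0565% of genes tested) and 171 were lower (1.21%). *Gfap* was therefore among 8 genes that rose. The groups did not overlap for *Gfap* and *Slc1a3*, both higher, compared with 2.77% of all genes in either direction and 0.848% in this direction. An unadjusted p under 0.05 was reached by 2 of 10 members and 6.12% of all genes. The median log2 fold change of the 10 members was 0.10, beside a median of 0.0062 over all genes.

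At 5 day recovery, 1 of 10 members was a DEG against control, compared with 1.27% of all genes tested, and that member was again *Gfap*. Of the 180 DEGs, 26 were higher (0.184%) and 154 were lower (1.09%). The groups did not overlap for *Gfap*, *Slc1a3*, *Stat3* and *Aqp4*, all higher at 5 day recovery, compared with 3.10% of all genes in either direction and 1.12% in this direction. An unadjusted p under 0.05 was reached by 6 of 10 members and by 16.6% of all genes. The median log2 fold change of the members was 0.26, and that of all genes was −0.0056. Against 14 day PLX3397, 0 of 10 members were DEGs in limma at 5 day recovery, compared with 0.325% of all genes, and 3 of 10 had an unadjusted p under 0.05, as did 16.5% of all genes. In that comparison the groups did not overlap for *Aldoc*, which was higher at 5 day recovery, compared with 3.53% of all genes in either direction and 2.11% in this direction. When recovery replicates 4 and 5 were left out, 1 of 10 members was a DEG against control, compared with 0.989% of all genes, and 4 had an unadjusted p under 0.05, as did 8.21% of all genes. The median log2 fold change against control was then 0.23 for the members and 0.0013 for all genes. Against 14 day PLX3397, 1 of 10 members then had an unadjusted p under 0.05, as did 6.94% of all genes, and the member median went from 0.10 to 0.045.

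**Figure D2:**
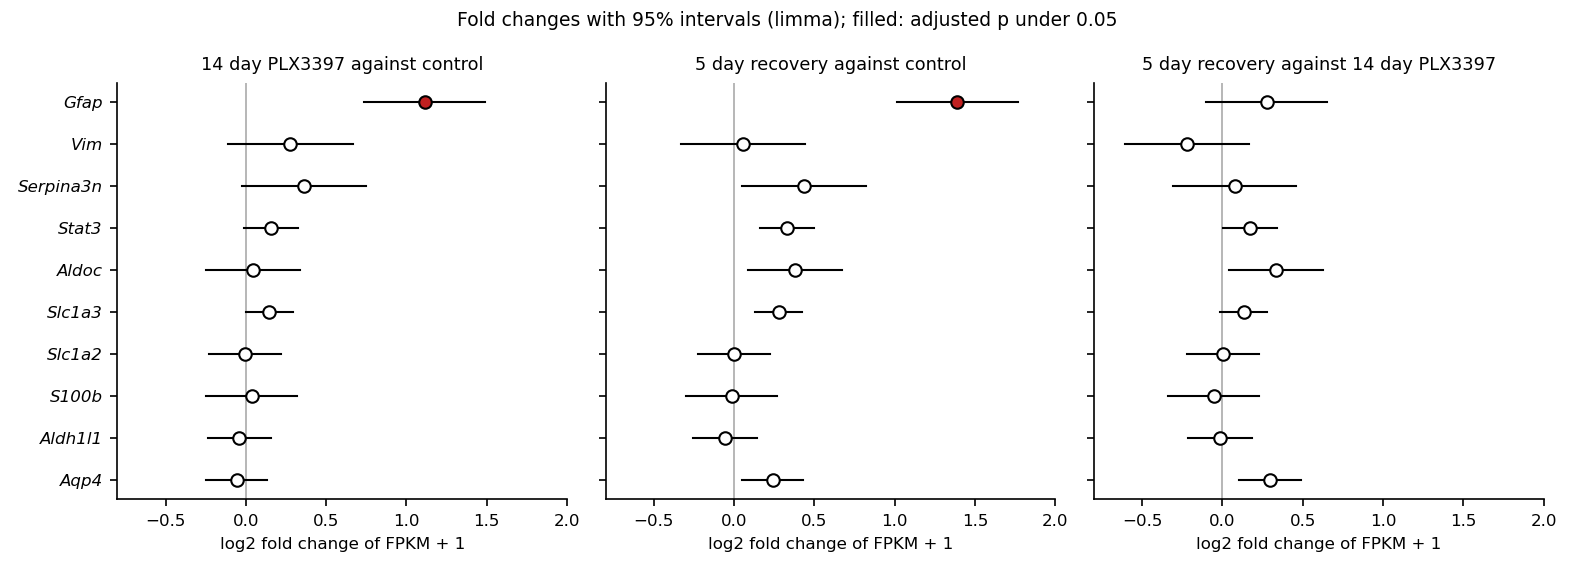
Log2 fold change of FPKM + 1 for each member (points) with its 95% interval (lines) in the 3 comparisons of SVZ groups, from limma on all 15 libraries. Filled points have an adjusted p under 0.05, which only *Gfap* reaches, at 1.11 and 1.39; at 5 day recovery the intervals of *Serpina3n*, *Stat3*, *Aldoc*, *Slc1a3* and *Aqp4* also lie above 0.

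*Stat3*, the transcription factor of the list, lies at chr11:100886806-100939594. Its FPKM were 17.8, 16.1, 15.4, 16.8 and 18.2 in control, 17.4, 19.5, 18.1, 20.7 and 19.2 at 14 day PLX3397, and 20.9, 21.4, 18.5, 23.5 and 23.3 at 5 day recovery. All recovery libraries were above all control libraries, and the 14 day PLX3397 libraries overlapped with either group. The means were 16.9 ± 1.16, 18.97 ± 1.29 and 21.5 ± 2.02 FPKM (SD, n = 5 each). Its log2 fold change was 0.16 at 14 day PLX3397 (adjusted p = 0.87) and 0.33 at 5 day recovery (95% interval 0.16 to 0.50, adjusted p = 0.056), just outside the threshold. The adjusted p at 5 day recovery ran from 0.043 with libraries centred on their medians to 0.20 with only the groups compared, and passed in 3 of 8 other settings. With a library left out it ran from 0.017 without 5 day recovery replicate 3, the only library whose removal gave a call, to 0.15 without replicate 5. Without replicate 3 the DEGs over all genes also went from 180 to 330. Without replicates 4 and 5, the log2 fold change was 0.25 (adjusted p = 0.31). Against 14 day PLX3397, *Stat3* at 5 day recovery had a log2 fold change of 0.17 (adjusted p = 0.30 in limma), or 0.09 without replicates 4 and 5. The study lists *Stat3* and *Gfap* among the upregulated DEGs of depleted and 5 day recovery tissue, whereas neither was a DEG in that comparison here.

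*Vim*, the intermediate filament that pairs with GFAP in reactive astrocytes and is also made by ependymal and vascular cells, was not a DEG in any comparison. It lies at chr2:13574311-13582826. Its FPKM were 12.5, 6.91, 9.55, 7.90 and 6.30 in control, 9.34, 9.77, 10.4, 9.24 and 13.8 at 14 day PLX3397, and 10.6, 11.3, 9.82, 7.50 and 5.74 at 5 day recovery. The 3 ranges overlapped, and the highest control value was in replicate 1, the library with choroid plexus genes. The fold change was 0.28 on the log2 scale at 14 day PLX3397 (95% interval −0.11 to 0.66, adjusted p = 0.98) and 0.06 at 5 day recovery (95% interval −0.33 to 0.44, adjusted p = 0.90). Without recovery replicates 4 and 5, the lowest *Vim* libraries of that group, the latter was 0.30 (adjusted p = 0.67). The intervals of *Gfap* in these comparisons began higher, at 0.74 and 1.01, but the difference between the genes was not tested. *Vim* rested on 58–196 reads a library, with a counting error of 13.1% at the lowest, whereas *Gfap* rested on 898–8088 reads.

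*Serpina3n*, a secreted serine protease inhibitor induced in reactive astrocytes, lies at chr12:104406646-104414334. Its FPKM were 9.005, 7.65, 10.1, 15.1 and 9.83 in control, 15.4, 16.4, 9.65, 14.8 and 11.2 at 14 day PLX3397, and 13.1, 14.2, 9.80, 15.6 and 18.7 at 5 day recovery. The ranges overlapped, since control replicate 4 was above 6 of the 10 treated libraries and replicate 3 was the lowest in each treated group. *Serpina3n* had a log2 fold change of 0.36 at 14 day PLX3397 (95% interval −0.02 to 0.75, adjusted p = 0.87) and 0.44 at 5 day recovery (95% interval 0.05 to 0.82, adjusted p = 0.25). A change of up to 1.77-fold at 5 day recovery was within that interval. The log2 fold change was 0.26 (adjusted p = 0.76) without recovery replicates 4 and 5.

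Among the identity genes, the glutamate transporter *Slc1a3* (GLAST), which SVZ stem cells also express, lies at chr15:8634124-8710807. Its FPKM were 147.3, 157.3, 167.9, 170.0 and 164.7 in control. At 14 day PLX3397 they were 184.1, 173.6, 187.1, 172.5 and 175.8, and at 5 day recovery 196.6, 175.3, 189.8, 207.4 and 211.1. All treated libraries stood above all control libraries by a small margin. The log2 fold change was 0.15 at 14 day PLX3397 (adjusted p = 0.81) and 0.28 at 5 day recovery (95% interval 0.13 to 0.42, adjusted p = 0.063). The adjusted p of the latter was 0.056 to 0.27 in the other settings, with the log2 fold change down to 0.19 under quantile normalization. With a library left out it was 0.029, without 5 day recovery replicate 2, to 0.16, without control replicate 1, and no other removal gave a call. It was 0.21 (adjusted p = 0.27) on the log2 scale without recovery replicates 4 and 5. *Slc1a2* (GLT-1), the transporter that clears most synaptic glutamate in the forebrain, had means of 74.8 ± 9.26, 74.4 ± 7.15 and 74.8 ± 9.86 FPKM (SD, n = 5 each). Its log2 fold changes were −0.0038 and −0.0016, with 95% intervals of −0.23 to 0.22 and −0.23 to 0.22, and without recovery replicates 4 and 5 the latter was −0.06 (adjusted p = 0.92). The libraries of *Slc1a2*, at chr2:102658239-102790784, held 68.7, 87.9, 75.7, 63.7 and 78.0 FPKM in control, 66.0, 75.3, 82.2, 68.4 and 80.3 FPKM at 14 day PLX3397, and 71.6, 60.1, 84.2, 83.4 and 74.8 FPKM at 5 day recovery.

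*Aqp4*, the water channel of astrocyte endfeet on chromosome 18, had FPKM of 22.2, 25.3, 23.8, 25.3 and 22.6 in control, 21.9, 19.2, 20.9, 28.5 and 24.6 at 14 day PLX3397, and 29.9, 28.7, 26.8, 28.6 and 27.5 at 5 day recovery. The recovery libraries were all above the control libraries, and 14 day PLX3397 replicate 4 reached into the recovery range. For *Aqp4* the log2 fold change at 5 day recovery was 0.24 against control (95% interval 0.05 to 0.43, adjusted p = 0.22) and 0.30 against 14 day PLX3397 (95% interval 0.11 to 0.49, adjusted p = 0.18). At 14 day PLX3397 it was −0.06 against control.

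*Aldoc*, the brain aldolase of glycolysis at chr11:78323073-78327781, was the highest member in every library. Its FPKM were 774.5, 1001, 993, 1183 and 1183 in control, 1013, 1088, 1031, 1110.1 and 1004 at 14 day PLX3397, and 1156, 1229.7, 1119, 1337 and 1881 at 5 day recovery. Each recovery library was above each 14 day PLX3397 library, but 2 of the 5 overlapped with control. The log2 fold change at 5 day recovery was 0.38 against control (95% interval 0.08 to 0.67, adjusted p = 0.21) and 0.33 against 14 day PLX3397 (95% interval 0.04 to 0.63, adjusted p = 0.26). Replicate 5 of 5 day recovery, with 1881 FPKM, also had the highest *Gfap*, *Serpina3n* and *Slc1a3*, and the highest erythrocyte genes with 335.9 FPKM. *Aldoc* without recovery replicates 4 and 5 had log2 fold changes of 0.20 against control (adjusted p = 0.67) and 0.16 against 14 day PLX3397 (adjusted p = 0.87).

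*S100b*, a calcium-binding protein of astrocytes and some oligodendrocytes at chr10:76253836-76261319, had FPKM of 55.5, 68.4, 65.2, 69.0 and 56.3 in control, 57.5, 66.3, 62.3, 86.1 and 53.7 at 14 day PLX3397, and 53.4, 62.2, 50.02, 74.5 and 73.5 at 5 day recovery. Its log2 fold changes against control were 0.04 and −0.02, with 95% intervals of −0.25 to 0.32 and −0.30 to 0.27, and without recovery replicates 4 and 5 the latter was −0.18 (adjusted p = 0.74). *Aldh1l1*, a folate enzyme used as a pan-astrocyte marker at chr6:90550768-90599171, had FPKM of 28.3, 26.9, 26.9, 30.9 and 26.7 in control, 26.7, 28.3, 26.6, 28.0 and 26.0 at 14 day PLX3397, and 28.2, 32.2, 26.7, 20.5 and 27.6 at 5 day recovery. Its log2 fold changes were −0.04 and −0.06, with 95% intervals of −0.24 to 0.16 and −0.25 to 0.14, and without recovery replicates 4 and 5 the latter turned to 0.05 (adjusted p = 0.89). Together with *Slc1a2*, these genes had overlapping ranges in all comparisons, and changes of more than 1.25-fold in either direction were outside the 95% intervals at 14 day PLX3397.

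Ordered by mean FPKM in control, the members ran from *Aldoc* through *Slc1a3*, *Slc1a2*, *S100b*, *Gfap*, *Aldh1l1*, *Aqp4*, *Stat3* and *Serpina3n* to *Vim*. FPKM is scaled by 1 length per gene, such as 12068 bases for *Slc1a2* and 4072 bases for *Gfap*, so the order of genes rests on these lengths. *Slc1a2*, *S100b* and *Gfap* had overlapping ranges in control, as did *Serpina3n* and *Vim*. *Gfap* moved from rank 5 in control to rank 3 in the other groups, where it passed *Slc1a2* and *S100b*.

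To set the reactivity genes against the astrocyte content of each library, their FPKM were divided by the geometric mean FPKM of the 6 identity genes. That mean was 89.4 ± 5.30 FPKM in control, 90.6 ± 4.50 FPKM at 14 day PLX3397 and 98.4 ± 6.41 FPKM at 5 day recovery (SD, n = 5 each). The *Gfap* ratio was 0.70 ± 0.14, 1.49 ± 0.20 and 1.69 ± 0.40 in these groups. Its highest control value, 0.83, was below its lowest value at 14 day PLX3397, 1.24, and at 5 day recovery, 1.20. Without recovery replicates 4 and 5, at 2.05 and 2.13, the recovery ratio was 1.42 ± 0.24 (SD, n = 3). For *Stat3* the ratio was 0.19 ± 0.022, 0.21 ± 0.0084 and 0.22 ± 0.013, with control replicates 1 and 5, at 0.22 and 0.20, inside the recovery range. The ratios of *Serpina3n* and *Vim* overlapped between all groups. The ratio is a description with no test.

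**Figure D3:**
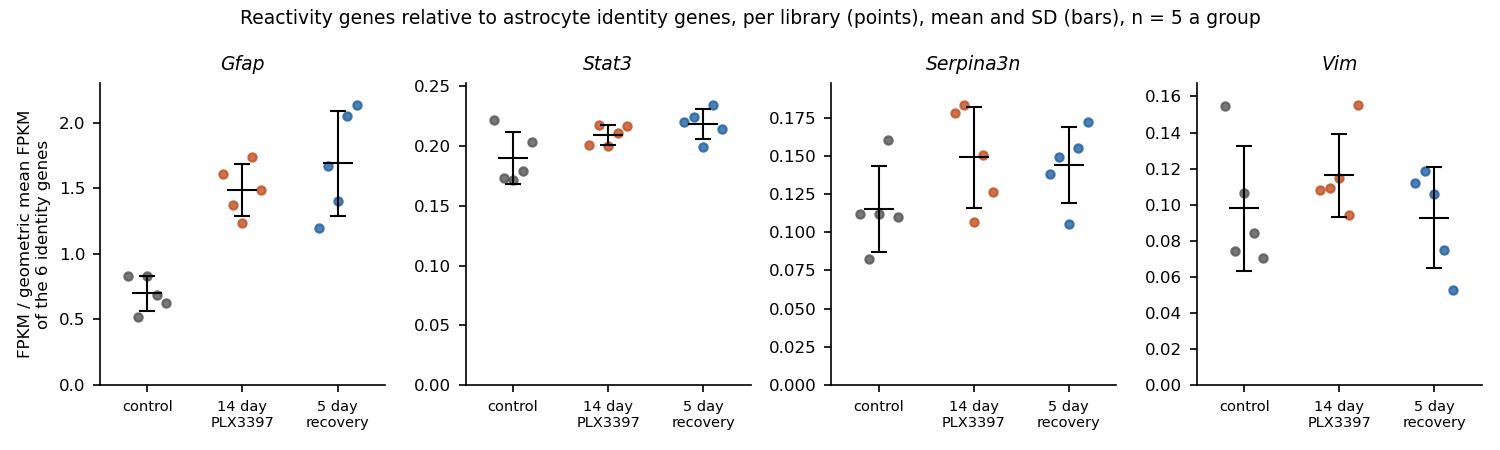
FPKM of each reactivity gene divided by the geometric mean FPKM of the 6 identity genes, in each library (points), with the mean and SD of a group (black bars, n = 5) on linear axes from 0. *Gfap* separates control (0.52–0.83) from 14 day PLX3397 (1.24–1.74) and 5 day recovery (1.20–2.13), and the ratios of *Stat3*, *Serpina3n* and *Vim* overlap between control and the other groups.

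Other astrocyte genes were read from lists. Of 21 other identity genes, all tested, 0 were DEGs in limma in any of the 3 comparisons, and 0 and 4 had an unadjusted p under 0.05 at 14 day PLX3397 and at 5 day recovery against control. Their median log2 fold changes were 0.02 and 0.07, beside 0.0062 and −0.0056 over all genes, and the latter list median was 0.035 without recovery replicates 4 and 5. The highest of them were *Clu*, the secreted chaperone clusterin, at 996, 1022 and 964 FPKM, *Mt3*, a metallothionein, at 889, 954 and 887 FPKM, and *Ndrg2*, an astrocyte cytosolic protein, at 600.3, 578 and 642 FPKM in the control, PLX3397 and recovery groups. *Gja1*, the gap junction protein connexin 43, had ranges of 93.0–108.0, 112.4–133.2 and 114.9–174.9 FPKM in these groups. The treated libraries were all above the control libraries, with log2 fold changes of 0.21 (adjusted p = 0.87) and 0.43 (adjusted p = 0.062), the latter 0.25 (adjusted p = 0.26) without recovery replicates 4 and 5. The list moved in both directions, with 13 genes above 0 and 8 below 0 against control in either group. The lowest value at 5 day recovery was that of *Fgfr3*, which went from 15.5 ± 1.17 to 9.37 ± 6.24 FPKM (log2 fold change −0.95, adjusted p = 0.21). Without replicates 4 and 5 its log2 fold change was −0.17 (adjusted p = 0.73).

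Reactive astrocyte lists gave no DEG that was higher. Of 10 pan-reactive genes besides the members, 6 were tested, and 2 and 1 of them had an unadjusted p under 0.05 at 14 day PLX3397 and at 5 day recovery. Their median log2 fold changes were −0.02 and 0.20. At 5 day recovery without replicates 4 and 5, 3 had an unadjusted p under 0.05 and the median was 0.29. *Hspb1*, which encodes the small heat shock protein HSP27, fell at 14 day PLX3397 from 10.01 ± 0.82 to 4.89 ± 0.95 FPKM (log2 fold change −0.92, adjusted p = 0.018). Leaving out control replicate 2, 3 or 4 or 14 day PLX3397 replicate 2 or 5 ended this call, with adjusted p values of 0.051–0.067. *Lcn2*, the secreted lipocalin 2, was chosen after its values were seen. It was at 0.22, 13.7, 8.48, 0.61 and 0.30 FPKM at 5 day recovery and at 0 to 1.85 FPKM in control, so that 2 libraries carried its mean and its log2 fold change was 1.19 (adjusted p = 0.32), or 1.96 (adjusted p = 0.26) without recovery replicates 4 and 5. These 2 libraries were not those with the highest *Gfap*.

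Of 12 A1 genes, described in astrocytes after an inflammatory stimulus, 10 were tested, and 1 fell at 14 day PLX3397. That gene was *Psmb8*, an immunoproteasome subunit, which went from 6.66 ± 0.95 to 3.41 ± 0.78 FPKM (log2 fold change −0.81, adjusted p = 0.0013). The median log2 fold changes of the list were −0.05 and 0.04 against control, the latter 0.012 without recovery replicates 4 and 5. Of 12 A2 genes, described after ischemia, 4 were tested, and *Cd14*, a receptor of innate immune cells, fell in both groups. It went from 2.85 ± 0.61 FPKM to 0.11 ± 0.10 FPKM at 14 day PLX3397 and 0.78 ± 0.86 FPKM at 5 day recovery (log2 fold changes −1.78 and −1.21, adjusted p = 8.5e-05 and 0.0064). The latter was −0.98 (adjusted p = 0.11) without recovery replicates 4 and 5. The microglial list fell in the same groups, and which cells carried the falls of *Psmb8* and *Cd14* was not tested. *S100a10*, a calcium-binding A2 gene, stood at 28.4 ± 2.72, 35.04 ± 5.03 and 35.2 ± 2.68 FPKM, with adjusted p values of 0.40 and 0.17.

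In the pathway of *Stat3*, 10 of 16 listed ligands, receptors, kinases and regulators were tested, and 0 rose in limma in any comparison, while 2 and 3 had an unadjusted p under 0.05 against control in either direction. *Il6ra*, the IL-6 receptor subunit, fell from 2.56 ± 0.46 FPKM in control to 0.90 ± 0.22 at 14 day PLX3397 and 0.92 ± 0.52 at 5 day recovery (log2 fold changes −0.90 and −0.92, adjusted p = 0.0023 and 0.0023). The microglial list fell in the same groups, and which cells carried the fall of *Il6ra* was not tested. The shared receptor subunit *Il6st*, which encodes gp130, was at 15.4, 15.7 and 15.5 FPKM, and the kinase *Jak1* at 24.4, 23.2 and 27.0 FPKM. *Osmr*, the oncostatin M receptor of astrocytes, named after its values were seen, was at 0.68 ± 0.19, 1.14 ± 0.35 and 1.26 ± 0.38 FPKM, with adjusted p values of 0.63 and 0.18. The median log2 fold changes of the pathway were 0.03 and −0.03, the latter −0.0089 without recovery replicates 4 and 5, where *Il6ra* was still a DEG (adjusted p = 0.043). The filament partners *Nes*, *Synm* and *Plec* had log2 fold changes of −0.13 to 0.03 at 14 day PLX3397 and −0.19 to −0.11 at 5 day recovery, none a DEG in limma, with 0 and 1 of the 3 at an unadjusted p under 0.05, and 0 at 5 day recovery without replicates 4 and 5.

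**Figure D4:**
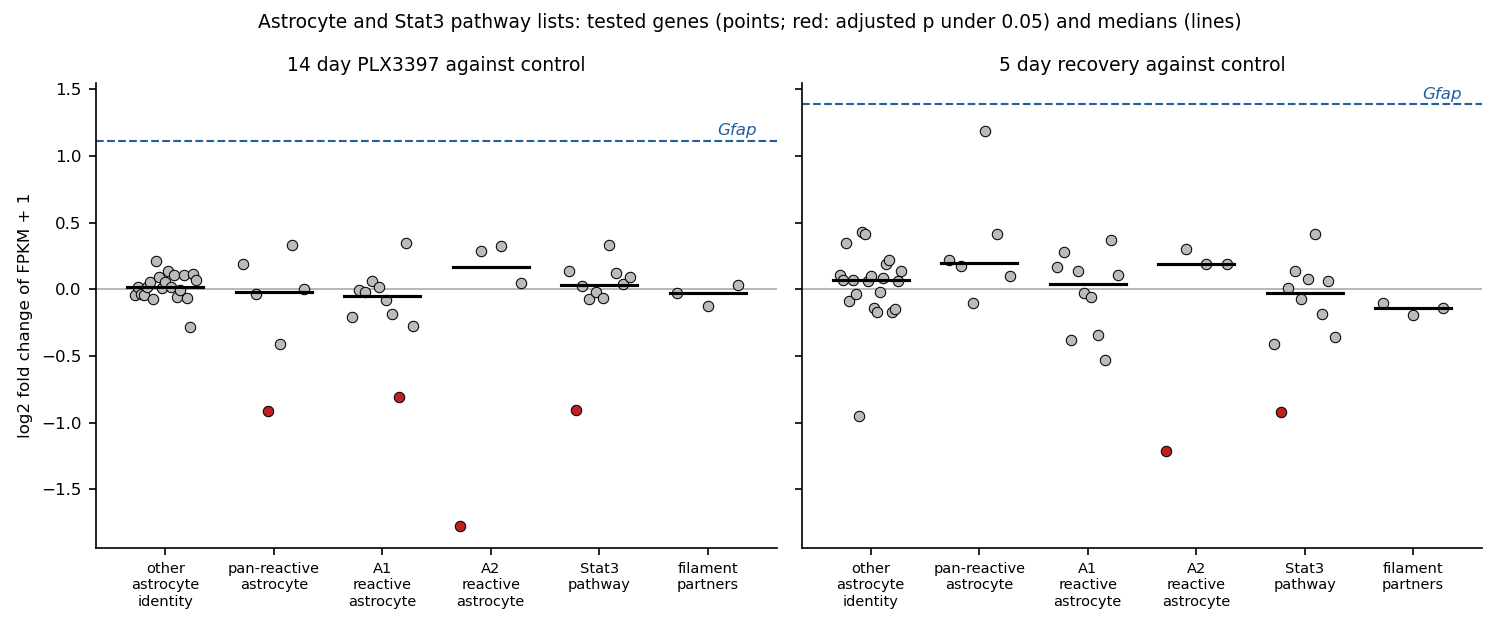
Log2 fold change of FPKM + 1 for the tested genes of 6 lists (points) and the list medians (short lines), against control; red points have an adjusted p under 0.05 and the dashed line is *Gfap*. With all libraries no listed gene reaches *Gfap*, at 1.11 and 1.39, although without recovery replicates 4 and 5, which is not drawn, *Lcn2* was at 1.96 and *Gfap* at 1.10. The red points, *Hspb1*, *Psmb8*, *Cd14* and *Il6ra*, are below 0. The microglial list, which is not drawn, also fell, and the cells behind these points were not identified.

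The genes most like *Gfap* over the 15 libraries, by Pearson r of log2(FPKM + 1), were *Cnrip1*, a protein that binds the cannabinoid receptor CB1 (r = 0.88), *Sc5d*, an enzyme of cholesterol synthesis (r = 0.87), *2310033P09Rik* (r = 0.84), *Gja1* (r = 0.84) and *Rnls* (r = 0.83). These libraries share their groups and their depth differences, and the values are a description. When deviations from the group means were used instead, the leading genes were *Cnpy4* (r = 0.89), *Higd2a* (r = 0.89), *Pigyl* (r = 0.88), *Hacd2* (r = 0.87) and *Myo1e* (r = 0.86), and none of these was among the first 5. Among the members, *Stat3* was closest to *Gfap* over all libraries (r = 0.82), followed by *Slc1a3* (r = 0.78) and *Serpina3n* (r = 0.72). Within groups *S100b* was the closest member (r = 0.64), with 0.61 for *Serpina3n*, 0.52 for *Stat3*, 0.47 for *Aldoc*, 0.27 for *Slc1a3*, 0.21 for *Aqp4*, −0.20 for *Aldh1l1*, −0.26 for *Slc1a2* and −0.29 for *Vim*. Without recovery replicates 4 and 5, r over the 13 libraries was 0.71, 0.65 and 0.60 for *Stat3*, *Slc1a3* and *Serpina3n*. Within groups it was then −0.66 for *Slc1a2*, 0.45 for *Serpina3n*, 0.39 for *S100b*, 0.36 for *Aqp4* and 0.18 for *Stat3*. The sign within groups turned for *Aldoc* (−0.035), *Slc1a3* (−0.31), *Aldh1l1* (0.43) and *Vim* (0.33). The first 5 genes had r of 0.74–0.89 over those 13 libraries.

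The members were also read in sorted myeloid cells of the same series. In control cells from whole hemispheres, taken in an LPS experiment at 0 hr (n = 3) and in a second repopulation experiment (n = 4), *Gfap* was at 0.35 ± 0.16 and 0.82 ± 0.16 FPKM, and *Aqp4* and *Slc1a2* were below 1 FPKM on average. *Stat3* was at 63.9 ± 4.33 and 50.9 ± 7.20 FPKM, *Slc1a3* at 54.4 ± 1.83 and 25.3 ± 0.84 FPKM, and *Vim* at 11.6 ± 5.73 and 29.5 ± 15.7 FPKM. *Aldoc* was at 3.08 ± 1.35 and 2.88 ± 0.42 FPKM, *S100b* at 1.17 ± 1.13 and 1.12 ± 0.95 FPKM, *Serpina3n* at 0.22 ± 0.19 and 1.61 ± 0.48 FPKM, and *Aldh1l1* at 0.033 ± 0.029 and 1.76 ± 0.29 FPKM. These tables were normalized separately from the SVZ table, so the levels are set side by side and not tested. In the SVZ, the microglial list was lowest at 14 day PLX3397, where *Stat3* and *Slc1a3* did not stand below control. The part of microglia in the member values was not tested.

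The other cell types were measured by lists in the same libraries. Oligodendrocyte genes summed to 2710–3605, 3145–5747 and 2423–3692 FPKM in the control, PLX3397 and recovery groups, with 0 of 7 DEGs in limma against control and 3 and 1 with an unadjusted p under 0.05. *Cldn11*, a claudin of myelin, was lower in the recovery group (mean 202.6 FPKM) than in the PLX3397 group (mean 316.5 FPKM), a DEG with a log2 difference of −0.63 and an adjusted p of 0.027, but not without recovery replicates 4 and 5 (−0.58, adjusted p = 0.15). Ependymal genes summed to 79.4–163.1, 94.8–176.3 and 101.0–173.6 FPKM, and neuroblast genes to 57.1–64.7, 58.5–77.0 and 59.6–76.2 FPKM, with 0 DEGs in limma in either list and 0 and 1 ependymal and 0 and 0 neuroblast genes with an unadjusted p under 0.05. Without recovery replicates 4 and 5, 0 oligodendrocyte and 0 ependymal genes had an unadjusted p under 0.05 at 5 day recovery against control. Of 5 genes of oligodendrocyte precursors, 2 fell at 14 day PLX3397, *Pdgfra* and *Cspg4* (log2 fold changes −1.01 and −0.80, adjusted p = 3.9e-06 and 0.0058). At 5 day recovery 1 fell, *Gpr17* (log2 fold change −1.60, adjusted p = 0.0010), which was at −1.13 (adjusted p = 0.0023) without recovery replicates 4 and 5. Of 4 tested erythrocyte genes, 3 were DEGs that rose at 5 day recovery, and 1 without recovery replicates 4 and 5. The gene still called was *Hba-a2*, at a log2 fold change of 1.33 (adjusted p = 0.015). The calls lost were *Hba-a1*, from 1.74 to 1.61 (adjusted p = 0.062), and *Hbb-bs*, from 1.30 to 1.31 (adjusted p = 0.080). Without these replicates, the recovery libraries of these genes were still all above the control libraries. The part of these cell types in the member values was not tested.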

How the data were processed

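RNA was sequenced from microdissected SVZ tissue of 15 samples, 5 in each group. Per the study's methods, the authors extracted RNA with RNeasy kits, made cDNA by Smart-seq2 and libraries with Nextera, sequenced paired ends on a NextSeq500, aligned with STAR, counted per gene with featureCounts of Rsubread and normalized with edgeR and limma. The labels carry another protocol, with other brain regions and another library preparation, and the submitters' processing notes name mm10. The deposited values are FPKM, which the authors computed from reads, gene length and library size, and no counts were used. Spreadsheet dates replaced 25 symbols, which were restored by Entrez ID from RefSeq.

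The 14151 genes that reached 1 FPKM in 3 or more of the 15 libraries were tested on log2(FPKM + 1) in R 4.3.3 (limma 3.58.1), with all groups in 1 fit, a variance trend and Benjamini-Hochberg adjustment. Tests are 2-sided, DEGs have an adjusted p under 0.05, and log2(FPKM + 1) understates changes of low genes. The procedure was first tested on simulated data. The members and lists were chosen with earlier results of these data known. All 10 members are named, with the DEGs against control of each list (at most 6) except the microglial lists. Named besides are at most 3 more genes of a list with the highest control FPKM, and the 5 genes most like *Gfap* by either correlation.

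Depth was recovered from the steps of low values with Python 3.11.15, where 92.5% of 255 low genes gave whole reads in every library within 0.001 read. A read on a gene of 2 kb was worth 0.047–0.11 FPKM, and counting error covers reads only. Alternatives were another pseudocount, no filter, only the groups compared, median centring, quantile normalization, no variance trend, a replicate block, only protein coding and lncRNA genes, and each library left out. The count of members without overlap was also taken with each library left out, and all results at 5 day recovery without its replicates 4 and 5, alternatives added after the data were seen. Gene positions and promoters are from RefSeq GRCm38.p6, the build of mm10, and 9 of 10 members had promoters used here. Figures were drawn with matplotlib 3.10.9.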

Additional observations from a re-analysis of the deposited data

Results flagged for a closer look

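Each group of 5 libraries was screened for a library that stood far from the others, by the gap to its neighbour as a share of the range. Of 30 groups screened, 2 held such a library, and chance alone gives about 1 in 20. *Vim* in 14 day PLX3397 replicate 5 was at 13.8 FPKM, with the other libraries of that group at 9.24–10.4 FPKM. *Aldoc* in 5 day recovery replicate 5 was at 1881 FPKM, with the others at 1119–1337 FPKM.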

How the results depend on the processing

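*Gfap* was a DEG at 14 day PLX3397 and at 5 day recovery in limma under all 8 other settings and with each of the 15 libraries left out, with log2 fold changes of 1.11 to 1.14 and 1.32 to 1.44 over the settings and 1.03 to 1.18 and 1.26 to 1.51 over the libraries. The members called at 5 day recovery against control were 2 without the filter on low values, with median centring and with the replicate block, and 1 to 2 with a library left out. The further member was *Stat3*, or *Slc1a3* without 5 day recovery replicate 2. Of all 14151 genes tested, 180 were DEGs in this comparison with all libraries and 330 without 5 day recovery replicate 3, where *Stat3* passed. Of 240 member results under other settings, 232 kept direction and side of the threshold, 3 passed it and 5 reversed, and of 450 with a library left out the numbers were 415, 2 and 33.

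Whether the replicate numbers pair the libraries was not settled. Same-numbered libraries correlated in their deviations from the group means by −0.15 to 0.49 (median 0.054), and others by −0.48 to 0.29. With the replicate block, *Stat3* had an adjusted p of 0.047 and *Gja1* of 0.038 at 5 day recovery, and 2 members were called.

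Over all genes, 153 to 330 DEGs were found at 5 day recovery against control with a library left out, the highest without 5 day recovery replicate 3. Against 14 day PLX3397 there were 29 with only the groups compared and 23 to 86 with a library left out. With 5 day recovery replicates 4 and 5 left out together, an alternative added after the data were seen, 140 DEGs were found against control and 25 against 14 day PLX3397, and *Gfap* was called against control.

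These log2 fold changes reversed, none of them a call. With median centring, *Slc1a2* was at 0.0064 (14 day PLX3397) and 0.048 (5 day recovery) against control, *S100b* at 0.034 (5 day recovery), and against 14 day PLX3397 *Aldh1l1* was at 0.023 and *Il6ra* at 0.026. With quantile normalization, the differences between 5 day recovery and 14 day PLX3397 were −0.055 for *Slc1a2*, 0.043 for *Il6ra*, −0.020 for *S100a10* and −0.0030 for *P2ry12*. Without recovery replicates 4 and 5, *Aldh1l1* was at 0.051 and *Hspb1* at 0.050 against control, and against 14 day PLX3397 *Gfap* was at −0.0086, *Vim* at 0.024, *Serpina3n* at −0.11, *Slc1a2* at −0.056, *Aldh1l1* at 0.091 and *Il6ra* at 0.16. With a library left out, the log2 fold changes at 14 day PLX3397 ranged from −0.059 to 0.056 for *Slc1a2*, −0.051 to 0.10 for *Aldoc*, −0.066 to 0.10 for *S100b*, −0.0034 to 0.39 for *Hba-a1* and −0.13 to 0.0013 for *Aqp4*. At 5 day recovery against control they ranged from −0.056 to 0.074 for *Slc1a2*, −0.081 to 0.060 for *S100b*, −0.035 to 0.19 for *Vim*, −0.25 to 0.047 for *Hspb1* and −0.12 to 0.035 for *Aldh1l1*. Against 14 day PLX3397 they ranged from −0.080 to 0.075 for *Aldh1l1*, −0.16 to 0.059 for *Il6ra*, −0.042 to 0.078 for *Slc1a2*, −0.052 to 0.074 for *S100a10*, −0.036 to 0.078 for *P2ry12*, −0.029 to 0.19 for *Serpina3n* and −0.12 to 0.051 for *S100b*. The members without overlap between these groups were 1 to 2, a count that can only grow when a library is left out. The cause was not tested. Depth limits *Vim* and *Serpina3n* most, with 58 and 73 reads in their lowest libraries.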
